A study of Mus musculus with 16 samples.

Results

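Of 80367 regions whose chromatin accessibility differed between GFPhigh (non-NE) and GFPneg (NE) small cell lung cancer (SCLC) cells, 1571 had their centre more than 500 kb from every transcription start of a protein-coding gene. These distant peaks were found by placing the centre of each deposited peak on the mm10 mouse genome and measuring the distance to the starts of all basic GENCODE transcripts of protein-coding genes. The list of peaks more accessible in GFPhigh cells is called opened here, and the list of peaks less accessible in GFPhigh cells is called closed. The distant peaks comprised 343 opened and 1228 closed peaks.

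The cells were sorted from lung tumors of the TKO;Hes1 GFP/+ model, where instilled Ad-CMV-Cre deletes Rb, p53 and p130 and a GFP reporter stands under the control of the Hes1 locus. Both groups carried these deletions and the reporter, were sorted as CD24+ cells negative for CD45, CD31 and TER-119, and were separated by the gate on Hes1-GFP, positive or negative. ATAC-seq, in which the Tn5 transposase inserts adaptors into open DNA, was performed on 8 libraries, 4 per group, from 3 mice, with tumors pooled within a mouse. Each mouse gave libraries to both groups. For 1 mouse there were 2 libraries in each group, labeled as replicates. Each library was run on 2 lanes, giving 16 runs. The deposited tables hold no value per library, so that depth per library is unknown and no spread between mice can be given. The signal of a peak is therefore the authors' mean normalized count over all libraries. The CMV promoter that drives the instilled Cre is a general promoter and does not limit Cre to 1 cell type. Among promoter peaks (within 1 kb of a start), Hes1 had 1 opened peak and the club cell gene Scgb1a1 had 2, whereas the NE genes Chga and Ncam1 had 2 and 1 closed peaks. No promoter peak of Syp was listed in either direction.

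Regulatory elements can act on promoters far along the chromosome. Stretches without coding genes, known as gene deserts, often flank genes for developmental transcription factors and neural adhesion molecules, and hold enhancers used in particular cell types. The nearest gene is given below as a landmark, since these files do not link a peak to the gene it acts on.

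The sequences below show the center of 4 distant peaks, 200 bp each on the plus strand of mm10. For each list, they come from the peaks of highest signal, among the chromosomes considered for printing, that held the core most frequent in that list among AP-1, FOX and TEAD. Both opened windows hold a match to the TEAD core CATTCC, in capitals, which is read as GGAATG on the other strand. TEAD factors bind this element with the Hippo pathway effectors YAP and TAZ. Only the TEAD core is in capitals in the opened windows. The first of them also holds the AP-1 core that is given below for the closed windows, here left in lower case.
chr5:133173416-133173615 (opened): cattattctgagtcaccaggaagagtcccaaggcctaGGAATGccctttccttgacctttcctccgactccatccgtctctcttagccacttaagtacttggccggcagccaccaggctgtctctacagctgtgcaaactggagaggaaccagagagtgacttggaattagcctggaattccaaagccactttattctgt
chr1:122357109-122357308 (opened): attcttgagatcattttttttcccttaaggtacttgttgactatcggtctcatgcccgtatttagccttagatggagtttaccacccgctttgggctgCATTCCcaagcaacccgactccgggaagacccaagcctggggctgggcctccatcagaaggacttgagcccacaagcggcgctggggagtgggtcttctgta
The first window lies 631693 bp from Auts2, a gene of neuronal development, outside any gene, in a peak of 927 bp with a mean normalized count of 427. The second lies 789220 bp from Ddx18, which encodes an RNA helicase, also outside any gene. Its peak is 142 bp wide, so the window runs past the peak on both sides, and its mean normalized count is 254. The closed windows both hold the AP-1 core TGANTCA, in capitals, which is bound by dimers of the Fos and Jun families.
chr1:19850009-19850208 (closed): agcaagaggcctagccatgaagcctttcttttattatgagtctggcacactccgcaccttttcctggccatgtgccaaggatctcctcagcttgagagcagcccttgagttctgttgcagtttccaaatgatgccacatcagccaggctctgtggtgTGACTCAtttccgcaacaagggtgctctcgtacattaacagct
chr3:139803101-139803300 (closed): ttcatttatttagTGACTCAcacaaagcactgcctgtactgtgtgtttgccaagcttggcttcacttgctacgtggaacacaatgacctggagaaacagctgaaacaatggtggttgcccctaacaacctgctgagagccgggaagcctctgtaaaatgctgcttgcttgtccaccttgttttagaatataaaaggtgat
The first closed window is in a peak of 677 bp with a mean normalized count of 472, located 638055 bp from Tfap2b, a developmental transcription factor gene. The second is in a peak of 752 bp with a mean normalized count of 420, located 597308 bp from Stpg2. Neither closed peak lies in a protein-coding or lncRNA gene.

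Opened peaks made up 21.8% of the distant peaks (95% Wilson interval 19.9 to 23.9%), against 50.8% of all listed peaks. Closed peaks thus outnumbered opened peaks among the distant peaks, although they were 49.2% of the whole list. The intervals here and below cover counting error only, since peaks are not replicates of the mice and no test over mice could be made. The opened share was lower in each successive distance class. It was 74.3% (73.4 to 75.1%) within 1 kb of a start, 52.3% (51.7 to 52.9%) from 10 to 50 kb and 27.0% (25.7 to 28.4%) from 250 to 500 kb. Beyond the limit, the opened share was 24.8% of 1042 peaks from 500 to 750 kb (22.2 to 27.5%), 17.1% of 316 peaks from 750 to 1000 kb (13.3 to 21.6%) and 14.6% of 213 peaks over 1000 kb (10.4 to 19.9%). The intervals of the first class beyond the limit and the last class before it overlap.

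**Figure D1:**
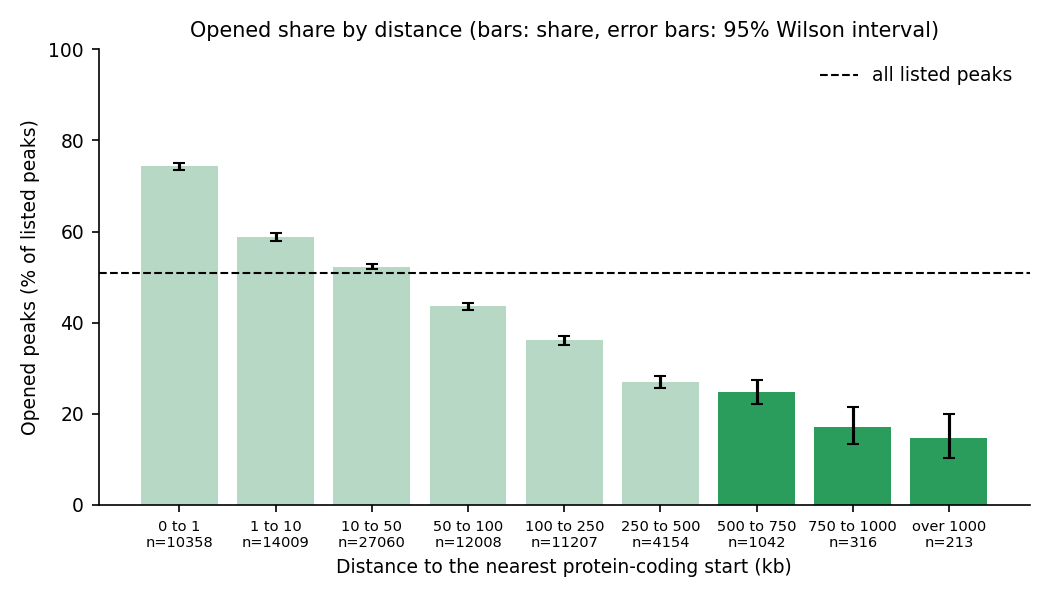
Opened peaks as a percentage of listed peaks (y axis) in 9 classes of distance to the nearest protein-coding start in kb (x axis, number of peaks under each class). Bars are shares, error bars are 95% Wilson intervals, dark bars are classes over 500 kb, and the dashed line is the share of all listed peaks (50.8%). The share is 74.3% in the nearest class and 14.6% in the farthest.

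The 3 peaks just inside the limit lay 500312 bp from Tns3 (opened), 500485 bp from Zfp608 (opened) and 500738 bp from Ccdc171 (closed). The 3 just outside lay 499732 bp from Cdh26 (opened), 499656 bp from Fzd8 (closed) and 499656 bp from Tenm4 (opened). Their mean normalized counts were 13.8, 12.5 and 5.95 inside and 16.8, 9.31 and 13.3 outside. The farthest closed peak was 2243248 bp from Celf4, an RNA-binding protein gene, and the farthest opened peak was 2220102 bp from the protocadherin gene Pcdh9. The latter consists wholly of soft-masked repeat sequence and has a mean normalized count of 7.04. The next farthest opened peak, chr1:102628183-102628353, lies 2140261 bp from the cadherin gene Cdh20 and has a mean normalized count of 120.

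Sequence over 500 kb from protein-coding starts makes up 10.8% of the sequenced bases of the autosomes and chromosome X, and held 1.95% of the listed peaks there. It had 5.68 listed peaks per Mb, against 34.5 per Mb in the remaining sequence. For closed peaks the density was 4.44 per Mb in the distant sequence and 16.8 per Mb elsewhere, a ratio of 3.78. For opened peaks it was 1.24 and 17.7 per Mb, a ratio of 14.3. Both lists were therefore sparser in the distant sequence, and the opened list more so.

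Closed peaks outnumbered opened peaks among the distant peaks of all 20 chromosomes that held any. On each of these chromosomes the opened share was also lower than that of all listed peaks. The share was highest on chromosome 9, at 44.1% of 34 distant peaks (28.9 to 60.5%), where it was 56.5% of all listed peaks. On chromosome 11 it was 38.5% of 65 peaks (27.6 to 50.6%), against 71.1% of all listed peaks. On chromosome 6 it was 6.1% of 82 peaks (2.63 to 13.5%), against 47.4% of all listed peaks. On chromosome 19 it was 3.85% of 26 peaks (0.682 to 18.9%), against 60.3% of all listed peaks. Chromosome 2 held 143 distant peaks and chromosome 10 held 142, at 10.7 and 10.9 per Mb of distant sequence, whereas chromosome X held 25, at 1.65 per Mb. Chromosome X also had fewer listed peaks at any distance, 1581, against 5995 on chromosome 2 and 4340 on chromosome 10.

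**Figure D2:**
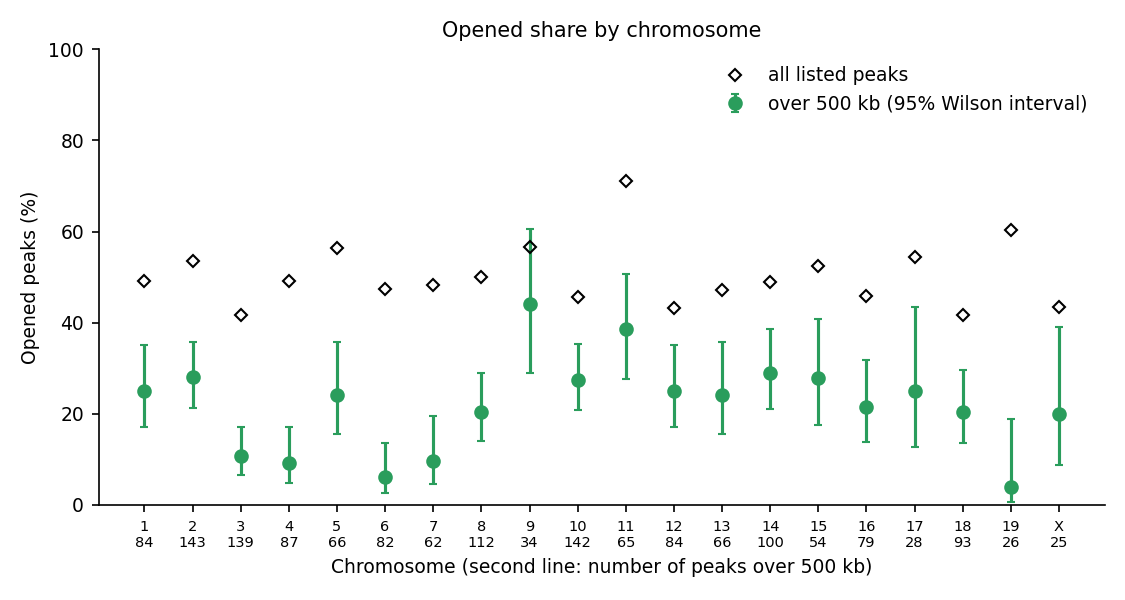
Opened share in percent (y axis) of distant peaks (green points with 95% Wilson intervals) and of all listed peaks (diamonds) by chromosome (x axis, with the number of distant peaks). All green points lie below their diamond, and the interval of chromosome 9 (28.9 to 60.5%) reaches its diamond.

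Distant opened peaks had a median mean normalized count of 29.0 (quartiles 13.5 and 61.4), against 40.7 for all opened peaks. Distant closed peaks had a median of 21.8 (13.3 and 39.5), against 25.8 for all closed peaks. Median widths were 295 bp for distant opened and 260 bp for distant closed peaks, close to the 300 bp and 248 bp of the whole lists. Opened peaks within 1 kb of a start had a median of 169 normalized counts, and those from 250 to 500 kb had a median of 27.1. The distant peaks were lower in GC content, with medians of 43.6% (opened) and 43.3% (closed) against 51.1% and 48.9% in the whole lists. Soft-masked repeats covered most of the bases in 5.83% of the distant opened peaks and 4.15% of the distant closed peaks, against 2.23% and 2.67% of the whole lists.

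**Figure D3:**
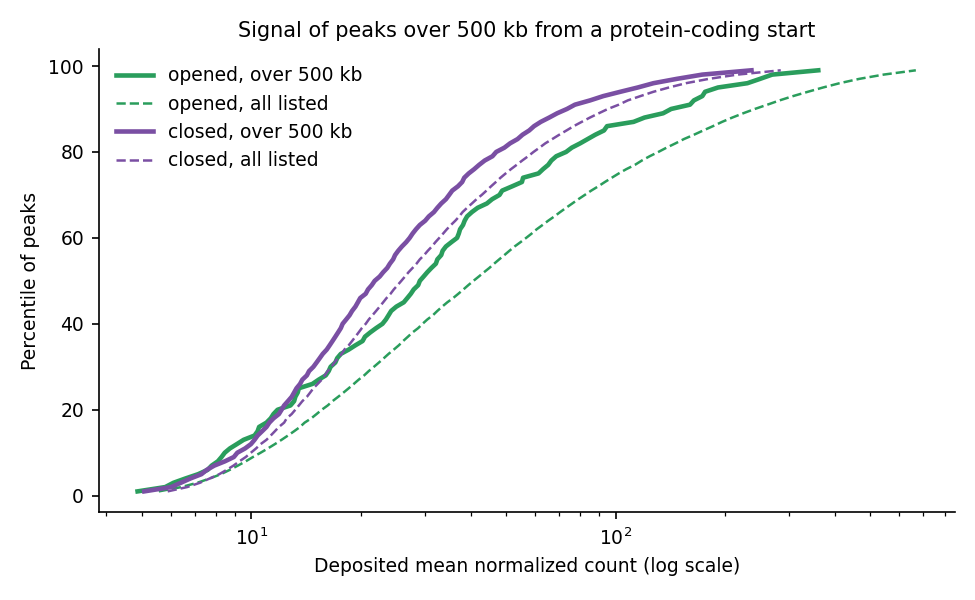
Percentile of peaks (y axis) against the deposited mean normalized count (x axis, log scale) for opened (green) and closed (purple) peaks, with solid lines for distant peaks and dashed lines for all listed peaks. At the 50th percentile the distant peaks lie at 29.0 (opened) and 21.8 (closed), left of the 40.7 and 25.8 of the whole lists.

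Signal and base composition moved with distance, so the opened share was also computed within classes of each. Each class was 25% of all listed peaks. In the class with the highest signal, 35.0% of 203 distant peaks were opened (28.7 to 41.8%), against 68.9% of all listed peaks. In the class with the lowest signal, 19.0% of 521 distant peaks were opened (15.9 to 22.6%), against 43.0%. In the class of lowest GC content, which held 1021 of the distant peaks, 21.7% were opened (19.3 to 24.4%), against 42.8% of all listed peaks. The other classes of signal gave 17.7% and 23.7% opened among distant peaks, against 42.3% and 49.0% of all listed peaks, and the other classes of GC content gave 26.4%, 13.5% and 16.7%, against 46.3%, 49.1% and 64.9%. In every class of signal and of GC content the distant peaks had the lower opened share, also when set against listed peaks from 1 to 500 kb only. Those peaks were 61.1% opened in the class with the highest signal and 56.4% opened in the class of highest GC content. The part of signal and of GC content in the opened share was not tested.

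The distant peak with the highest signal among the opened peaks was chr1:62175058-62175689, with a mean normalized count of 429. It lies within Pard3b, a cell polarity gene, and 527911 bp from the start of the semaphorin receptor gene Nrp2. The next opened peak is the Auts2 peak shown above. Opened peaks of 396, 361 and 357 normalized counts lay 788195 bp from Alcam, which encodes a cell adhesion molecule, 720333 bp from Kcnma1, which encodes a large-conductance potassium channel, and 685922 bp from Adgrl2, a latrophilin receptor gene. In the closed list, the Tfap2b and Stpg2 peaks above were followed by peaks of 420, 408 and 343 normalized counts near Dtwd2, the neural cadherin gene Cdh2 and the protocadherin gene Pcdh7. The highest signals of both lists were thus of similar size. The widest opened peak, chr2:46443125-46444178, spans 1054 bp with a mean normalized count of 227, between Zeb2 and Acvr2a. The widest closed peak is the Stpg2 peak of 752 bp.

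Distance from a start did not always mean a position outside genes. Of the 1571 distant peaks, 244 (15.5%, 13.8 to 17.4%) lay inside a protein-coding gene, 5 of them in an exon, whereas 56.8% of all listed peaks lay inside one. Another 1167 peaks (74.3%) lay in no annotated gene of any type. Inside protein-coding genes 17.6% of the distant peaks were opened (13.4 to 22.9%) and outside them 22.6% were (20.4 to 24.9%), which are overlapping intervals. Of all listed peaks, 52.1% inside and 49.1% outside protein-coding genes were opened, the opposite order. The host genes numbered 44, and 30 of them had closed distant peaks only. Of the 16 host genes with 5 or more distant peaks, 7 had closed ones only. Most distant peaks were closed (1228 of 1571), which alone makes host genes with closed peaks only more frequent. The adhesion genes Cntnap2, Pcdh9 and Lsamp held 16, 16 and 12 closed and 0 opened distant peaks. Cadm2, another synaptic adhesion gene, held 15 closed and 1 opened. The large genes Wwox and Fhit, which lie at common fragile sites, held 11 and 10 closed and 1 opened each. The hosts with most distant peaks held both directions. Macrod2, which encodes an ADP-ribose hydrolase, held 12 opened and 15 closed peaks, and Lrmda, a gene tied to melanocyte differentiation, held 17 opened and 6 closed peaks.

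Long non-coding RNA (lncRNA) starts lay within 1 kb of 32 distant peaks (2.04%, 1.45 to 2.86%), against 3.61% of all listed peaks. Of these, 13 were opened (40.6%, 25.5 to 57.7%), and 64.3% of all listed peaks at lncRNA starts were opened. The opened peak of highest signal at such a start was the wide Zeb2 peak, 942 bp from the start of Gm13470. The next pair, with mean normalized counts of 173 and 81.7, lay 257 and 368 bp from the start of AC147219.1 on chromosome 18. The closed peak of highest signal at a lncRNA start, chr4:68022851-68023347, lay 68 bp from the start of Gm11751 with a mean normalized count of 158. Only 10 distant peaks were within 5 kb of a miRNA gene.

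The distant sequence falls into 413 stretches, each bounded by the starts of protein-coding genes or a chromosome end, and 239 of them held a distant peak. Closed peaks alone were found in 140 stretches, opened peaks alone in 25, and both in 74. Among 77 stretches with 8 or more distant peaks, 63 held more closed than opened peaks, 10 held more opened and 4 were equal. The 10 stretches with most distant peaks held 267 of them (17%).

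The stretch with most distant peaks lies between Nmbr, the neuromedin B receptor gene, and Cited2, which encodes a partner of the coactivators CBP and p300 (chr10:15260220-17223217). It held 7 opened and 31 closed peaks. The closed peaks ranged from 6.1 to 314 normalized counts with a median of 31.4, and 14 of them held an AP-1 core. The listed peaks in the 500 kb to either side were 34 opened and 15 closed, so the distant peaks and their surroundings differed in the more frequent direction. Between Zeb2, which encodes a zinc finger repressor, and the activin receptor gene Acvr2a (chr2:45617396-48314108), 9 peaks were opened and 25 closed, and the surroundings had 8 opened and 42 closed peaks.

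Like most stretches with 8 or more distant peaks, the next ones held mostly closed peaks, and 3 of them were named for their low opened share. Of the 77 stretches with 8 or more, 31 held closed peaks only, and the 3 are those with most peaks among the 31. Between Fam181b and the teneurin adhesion gene Tenm4 (chr7:93579866-95671245), 29 of 30 distant peaks were closed, and Tenm4 itself had 3 closed promoter peaks. Between Ddx18 and Dpp10, which encodes an auxiliary subunit of neuronal potassium channels, 19 of 20 were closed. The single opened peak of that stretch had a mean normalized count of 254, and the closed ones ranged from 6.18 to 154. All 20 peaks between Tlr4, an innate immune receptor gene, and the neural gene Brinp1 (chr4:67327614-68454396) were closed, with counts from 6.87 to 243. All 16 peaks inside Cntnap2, between its own alternative starts (chr6:45560062-46744386), were closed as well, and so were all 16 between Trim52 and the synaptic adhesion gene Slitrk1 (chr14:106606199-108414157). Between Sel1l, which acts in degradation of proteins of the endoplasmic reticulum, and the adhesion gene Flrt2, 6 were opened and 19 closed.

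Opened peaks outnumbered closed peaks in 41 of the 239 stretches with a distant peak, among them 10 of the 77 with 8 or more. All 9 distant peaks between Gja1, which encodes the gap junction protein connexin 43, and the heat shock factor gene Hsf2 (chr10:56879089-56986395) were opened. Their counts ranged from 12.5 to 293, Gja1 had 2 opened promoter peaks, and the surroundings had 18 opened and 0 closed peaks. Between the potassium channel gene Kcnj2 and Sox9 (chr11:111566165-112282223), 17 of 18 peaks were opened, with counts of 6.12 to 123. Sox9, a transcription factor of cartilage and airway progenitors, had 3 opened promoter peaks and Kcnj2 had 2. Between Plod2, a collagen-modifying enzyme gene, and 1190002N15Rik, 7 of 8 were opened. In the Lrmda to Kcnma1 stretch (chr14:22519849-23150188), 19 of 25 peaks were opened, and between Tmpo and the centrosome gene Nedd1 (chr10:91671583-92222419), 15 of 21 were. Around Tmpo and Nedd1 the listed peaks were 20 opened and 35 closed, again the other way from the distant peaks.

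Promoter peaks of the bounding genes did not always follow the distant peaks. Hsf2, the gene nearest to 8 of the 9 opened peaks beside Gja1, had none listed, Kcnma1 had 1 closed promoter peak beside a mostly opened stretch, and Tlr4 had 1 opened promoter peak beside a stretch with closed peaks only. Promoter peaks of Lrmda (2 opened), Tmpo (1 opened), Brinp1 and Cntnap2 (3 closed each) went with their stretch. So did those of Dpp10 and Fam181b (2 closed each), Flrt2 (1 closed), and Gja1, Sox9, Kcnj2 and Tenm4 above. Neither bounding gene had a listed promoter peak in the Nmbr-Cited2, Trim52-Slitrk1, Zeb2-Acvr2a, Flrt3-Kif16b, Slc10a2-Efnb2 and Plod2-1190002N15Rik stretches.

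Other stretches were mixed. Between Celf2 and Gata3, a transcription factor gene of several epithelial and lymphoid lineages, 10 peaks were opened and 10 closed. The peaks nearest to Gata3 were 10 opened and 5 closed, and Celf2 had 3 closed promoter peaks. Between Slc10a2, a bile acid transporter gene, and the ephrin ligand gene Efnb2, 11 were opened and 16 closed. Between the adhesion gene Flrt3 and the kinesin gene Kif16b, 12 opened peaks with a median of 78.4 normalized counts (23.2 to 172) lay beside 15 closed peaks with a median of 21.3 (8.99 to 113), and all 27 were inside Macrod2. Over all stretches with 8 or more distant peaks, closed peaks also prevailed in the surroundings of 56 of the 63 mostly closed stretches. In the 10 mostly opened stretches, opened peaks prevailed in the surroundings of 5 and closed peaks in those of 4.

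**Figure D4:**
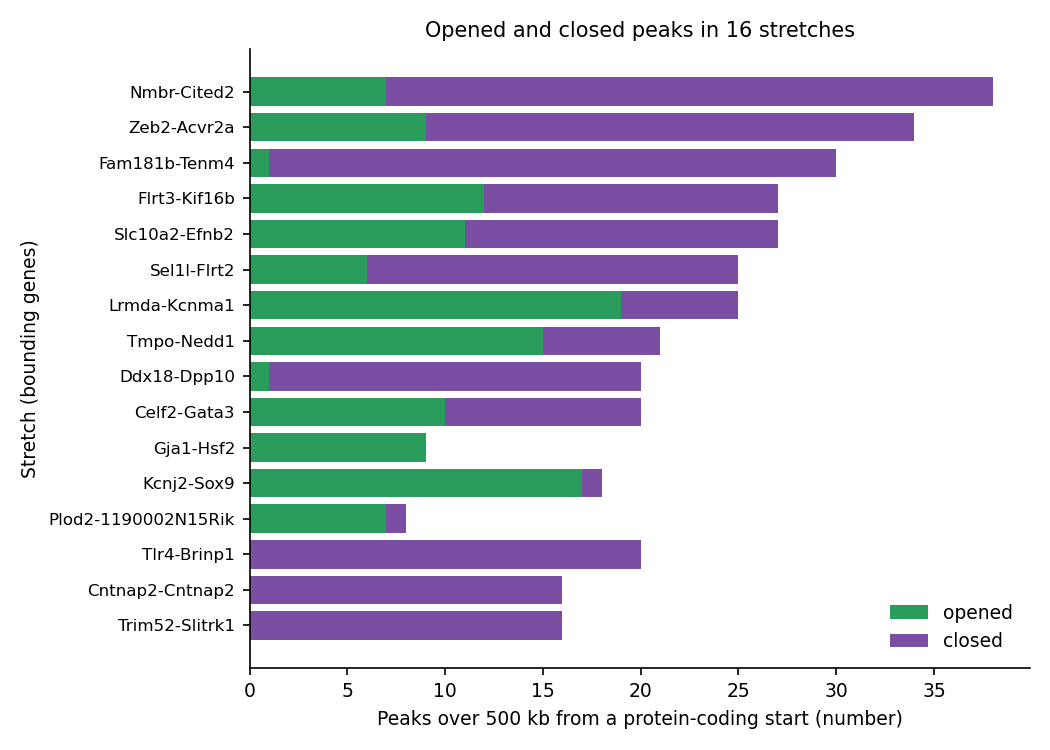
Number of distant opened (green) and closed (purple) peaks (x axis) in 16 stretches named by their bounding genes (y axis). The first 10 from the top hold the most distant peaks, and the next 3 have the highest opened share among stretches with 8 or more. The last 3 hold the most peaks among the 31 stretches of that size with closed peaks only. Kcnj2-Sox9 holds 17 opened and 1 closed peaks, and Tlr4-Brinp1 holds 20 closed peaks.

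Of 865 pairs of adjacent distant peaks at most 50 kb apart, 85.7% had the same direction (83.2 to 87.8%), with 146 pairs both opened, 595 both closed and 124 mixed. Over all listed peaks the share was 74.6%, but the lists are near equal in size there (50.8% opened) and unequal among the distant peaks (21.8% opened), which alone raises the share of pairs that match, so these values are not directly comparable. The same holds for each list on its own. Opened peaks paired with another opened peak in 70.2% among the distant peaks, where 21.8% were opened, and in 76% over all listed peaks, where 50.8% were. Within 10 kb these values were 81% and 82%. Closed peaks paired with another closed peak in 90.6% among the distant peaks, where 1228 of 1571 were closed, and in 73% over all listed peaks, where 49.2% were. Within 10 kb the values for closed peaks were 93.2% and 77.3%.

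Genes were grouped in lists to describe what the distant peaks lie nearest to. The nearest protein-coding genes numbered 357, of which 93 had 1 distant peak. Neural adhesion, guidance and synapse organizer genes were nearest to 347 distant peaks (22.1%), at 59 of 135 genes. Of all 80367 listed peaks, 2408 were nearest to these genes, and 18.6% of the 2408 were opened. Of the 347 distant peaks, 15.9% were opened (12.4 to 20.1%). Tenm4 had 1 opened and 25 closed, Pcdh9 had 1 and 19, Cadm2 had 1 and 17, and Cntnap2 had 0 and 16. Efnb2 was the exception among the first 5 of this list, with 11 opened and 11 closed. Neural channel and receptor genes were nearest to 70 distant peaks (4.46%) and to 1071 of all listed peaks. The opened shares were 20.8% of the 1071 and 17.1% of the 70 distant peaks (10.1 to 27.6%). The metabotropic glutamate receptor gene Grm7 had 8 closed and 0 opened peaks, and Nmbr had 12 closed and 0 opened. Kcnma1 had 6 opened and 1 closed, and the muscarinic receptor gene Chrm3 had 2 opened and 3 closed.

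Developmental and lineage transcription factor genes were nearest to 154 distant peaks (9.8%) and to 3311 of all listed peaks. The opened shares were 42.9% of the 3311 and 29.2% of the 154 distant peaks (22.6 to 36.8%). Within this list, Sox9 had 11 opened and 1 closed and Gata3 had 10 opened and 5 closed. Zeb2 had 6 opened and 17 closed, Bcl11a, a zinc finger factor gene of neurons and lymphocytes, had 3 and 7, and Myc had 3 and 5. Among the remaining lists, Notch, Hippo and REST genes were nearest to 6 distant peaks (0.382%) and lung epithelial genes to 12 (0.764%). Markers of leukocytes, endothelium and fibroblasts were nearest to 8 (0.509%). Of all 80367 listed peaks, 458, 486 and 156 were nearest to these lists. Of the Notch, Hippo and REST genes, only Vgll3, which encodes a TEAD cofactor, with 5 closed peaks, and the Notch ligand gene Jag1, with 1 opened peak, had any, although all listed peaks nearest to this list were 62.0% opened. The lung epithelial list had 12 distant peaks, all at Sox9, which is also in the transcription factor list, and 67.9% of all listed peaks nearest to this list were opened. Among markers of leukocytes, endothelium and fibroblasts, Cdh5, the endothelial cadherin gene, had 4 closed peaks, and Ptprc, the leukocyte CD45 gene, had 2 opened and 2 closed. At any distance, Cdh5 had 2 opened and 23 closed listed peaks and Ptprc had 11 opened and 5 closed, and 37.8% of the 156 listed peaks nearest to this list were opened. Of the 38 genes in this marker list, 2 thus had distant peaks, and the part of such cells in the result was not tested.

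Of 55 genes that were nearest to 8 or more distant peaks, 43 had more closed and 9 more opened distant peaks. Promoter peaks were listed as closed for 20 of these 43 genes (46.5%) and as opened for 1 (2.33%). Among all 14575 genes nearest to a listed peak up to 500 kb away, 12.7% had a closed and 39.9% an opened promoter peak. Of the 9 genes, 2 (Sox9 and Lrmda) had opened promoter peaks and 0 had closed ones. Closed peaks also prevailed among the nearer listed peaks, up to 500 kb, of 36 of the 43 (83.7%), against 37.3% of the 14575 genes. The 55 genes have many listed peaks and are not a sample of all genes, so these shares are a description. Of the 9 genes with more opened distant peaks, 4 had more opened and 4 more closed nearer peaks.

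Short motif cores were searched on both strands in the central 200 bp of each peak, and compared with the same list at any distance and with windows of the same length centered 1 kb to either side. The cores were TGANTCA (AP-1), TGTTTAC (FOX), CATTCC (TEAD), CACTTNA (NKX2), CAGCTG (an E-box), TGGGAA (RBPJ), TTGGCA (the NFI half-site) and ACAATG (SOX), with N for any base, and a CTCF core. Cores can overlap in a sequence, and an exact match is a description, not a bound site. Among all listed peaks, 18.4% held the AP-1 core, 8.25% FOX, 13.5% TEAD, 16.8% NKX2, 17.2% the E-box, 18.5% RBPJ, 15.8% NFI, 13.1% SOX and 0.531% CTCF.

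Every core but CTCF differed between opened and closed peaks in the same direction among the distant peaks as in the whole lists. For FOX the intervals of the distant opened and closed peaks overlap. The AP-1 core was in 29.2% of the distant closed peaks (26.7 to 31.8%), in 7.53% of their side windows and in 26.4% of all closed peaks. In the distant opened peaks it was in 11.4% (8.43 to 15.2%), in 7.29% of the side windows and in 10.6% of all opened peaks. The TEAD core was in 21.6% of the distant opened peaks (17.5 to 26.2%), in 11.4% of their side windows and in 18.2% of all opened peaks, which lies inside the interval. It was in 10.3% of the distant closed peaks (8.69 to 12.1%), in 10.7% of their side windows and in 8.77% of all closed peaks. FOX, the core of forkhead factors, was above its side windows in both lists. It was in 9.33% of the distant opened peaks (6.69 to 12.9%) against 3.64% of side windows and 6.84% of all opened peaks, and in 11.9% of the distant closed peaks (10.2 to 13.8%) against 3.75% and 9.71%.

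The E-box, which basic helix-loop-helix factors bind, was in 18.9% of the distant closed peaks (16.8 to 21.2%), against 22.6% of all closed peaks. Their side windows held it in 5.54% and those of all closed peaks in 9.02%, so the ratio of peaks to side windows was 3.41 for the distant and 2.51 for all closed peaks. In the distant opened peaks it was in 9.91% (7.18 to 13.5%), against 12% of all opened peaks and 5.39% of side windows. The SOX core was in 23.5% of the distant closed peaks (21.2 to 26.0%), against 17.3% of all closed peaks, with ratios to side windows of 1.82 and 1.53. In the distant opened peaks SOX was in 12.5% (9.44 to 16.5%), against 9.09% of all opened peaks and 14% of side windows. RBPJ, the core of the Notch effector, was in 23.9% of the distant opened peaks (19.7 to 28.7%), against 20.7% of all opened peaks and 17.1% of side windows. It was in 14.5% of the distant closed peaks (12.6 to 16.6%), against 16.3% of all closed peaks and 15% of side windows, and so not above its surroundings there.

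NKX2 was in 29.7% of the distant opened peaks (25.1 to 34.8%), against 18.6% of all opened peaks. Their side windows held it in 15.7% and those of all opened peaks in 10.6%, so the ratios to side windows were 1.89 and 1.76. In the distant closed peaks it was in 20.3% (18.1 to 22.6%), against 14.9% of all closed peaks, with ratios to side windows of 1.69 and 1.33. NFI was in 28.3% of the distant opened peaks (23.8 to 33.3%), against 18% of all opened peaks, with ratios to side windows of 3.08 and 1.81. It was in 17.4% of the distant closed peaks (15.4 to 19.6%), against 13.4% of all closed peaks, with ratios of 1.9 and 1.33. The ratio of peaks to side windows was not higher in the distant peaks for every core. For AP-1 it was 3.87 in distant closed and 4.38 in all closed peaks, and 1.56 in distant opened and 1.82 in all opened peaks. For FOX it was 3.17 and 3.31 in closed peaks and 2.56 in both sets of opened peaks. For TEAD it was 1.9 and 1.7 in opened and 0.962 and 0.817 in closed peaks.

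Peaks from 250 to 500 kb were close to the distant peaks in these shares. In opened peaks of that class, NKX2 was in 27.5%, NFI in 25.8%, TEAD in 22.7% and AP-1 in 13.6%, and the shares of these and of FOX, the E-box, RBPJ and SOX lay inside the intervals of the distant opened peaks. In closed peaks of that class, AP-1 (27%), FOX (12.2%) and TEAD (9.33%) lay inside the intervals of the distant closed peaks. NKX2 (16.4%), NFI (14.6%) and SOX (20%) lay below them, and the E-box (21.4%) and RBPJ (16.7%) lay above them by a small margin. GC content was also lower in the distant peaks than in the whole lists, as given above, and its part in these shares was not tested. The CTCF core was in 2 distant closed peaks and in 0 of 343 distant opened peaks. A count of 0 allows a share of up to 0.875% (3 counts of 343), or 1.11% by the Wilson interval, so a difference from the 0.808% of all opened peaks was not detectable.

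**Figure D5:**
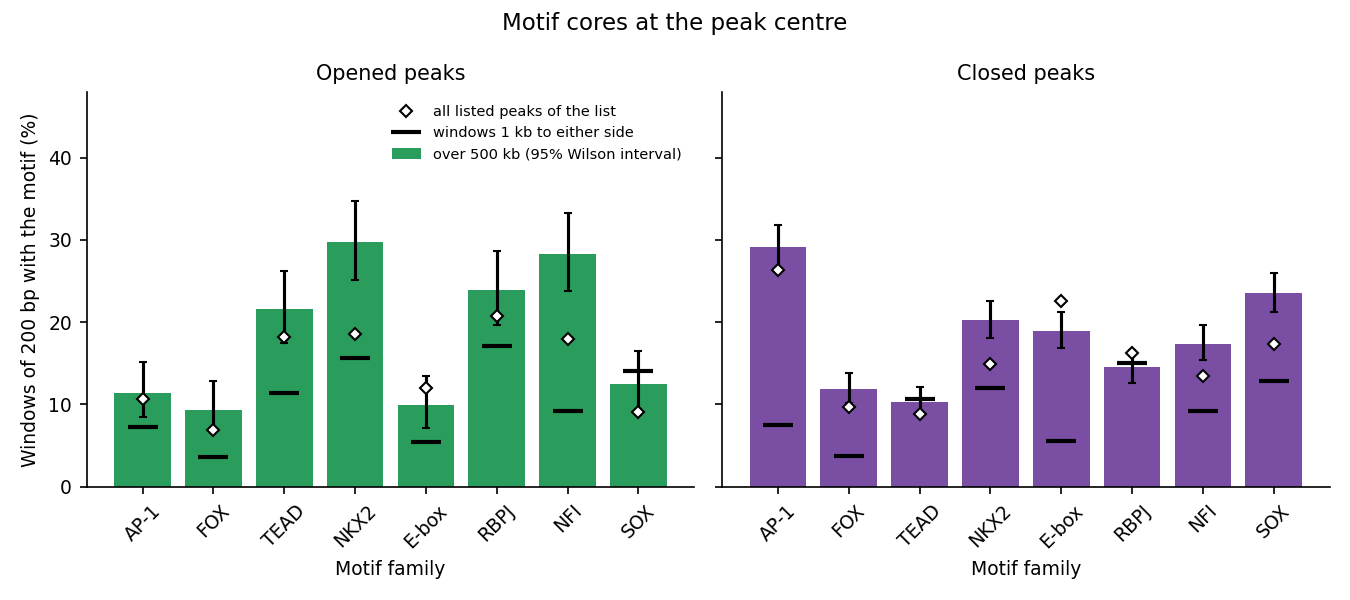
Percentage of central 200 bp windows with each motif core (y axis) by family (x axis) in distant opened peaks (left) and distant closed peaks (right). Bars with 95% Wilson intervals are distant peaks, diamonds are all peaks of the list, and dashes are windows 1 kb to either side. The AP-1 bar stands at 29.2% in closed and 11.4% in opened peaks, and the TEAD bar at 10.3% and 21.6%.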

How the data were processed

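Per the labels and the study's methods, the authors aligned paired reads to mm10 with Bowtie2 2.3.4.1, removed duplicates, called narrow peaks with MACS2 around the Tn5 insertion sites and merged the peaks of all samples. The authors compared the groups with DESeq2 1.28.1 and deposited the peaks past their limits on adjusted p and fold change as an opened and a closed list. The signal the authors deposited is the mean normalized count of a peak over all libraries. The deposited columns with fold changes, their errors, Wald statistics and p-values are the authors' own comparison and were not used. Whether lanes, or the pairs of 1 mouse, were summed is not given in the sources used here.

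Tables were read and joined with pandas 2.3.3 and numpy 2.4.6, intervals computed with scipy 1.17.1 and plots drawn with matplotlib 3.10.9, all under Python 3.11.15. Positions are 1-based on mm10. Distances run from the peak center to transcript starts of protein-coding genes in GENCODE basic vM21, and sequence came from RefSeq GRCm38.p6. Distances, motif searches and neighbor counts were checked on simulated data. Shares carry Wilson intervals at a confidence level of 95%. No test was run, since no value per library was analysed here. Depth per library is unknown. Peaks within the authors' limits were not analysed here.

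Named were the 3 peaks on each side of the limit, and in each list the 5 peaks of highest signal, the 3 farthest, the 2 widest and the 3 strongest at lncRNA starts. Also named were the 10 stretches with most peaks, the 3 with the highest and the 3 with the lowest opened share among those with 8 or more, and their bounding genes. The lowest share was common to 31 stretches with closed peaks only, of which the 3 with most peaks were taken. The host genes with most peaks and the 5 genes with most peaks in each gene list were named too. The result of 1 gene that this rule selects is not reported here. The peaks, lists and rules were chosen with earlier results of these data known. Chromosome 18 was left out when sequences were chosen. The genes Hes1, Scgb1a1, Chga, Syp and Ncam1 were named outside this rule. Alternatives were other distance limits and start sets, merging of adjacent peaks, a signal minimum and the whole peak in motif searches.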

Additional observations from a re-analysis of the deposited data

How the results depend on the processing

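The number of distant peaks was 2540, 529 and 213 with limits of 400 kb, 750 kb and 1 Mb, and 882 with a mean normalized count of at least 20. The opened share was 16.1% at 750 kb, 14.6% at 1 Mb and 25.1% with that minimum, and it remained below the 50.8% of all listed peaks in each alternative. The 50.8% was not recomputed under each alternative. Among all listed peaks the opened share was 43.0% in the class of lowest signal and 68.9% in the highest, so the comparison under the signal minimum is unlike. With 1 start per protein-coding gene, 2143 peaks were distant and 21% were opened, and the share inside a protein-coding gene was 33.8% in place of 15.5%. Of 154 alternative values of the other shares and medians, 113 lay within the interval of the reported value and 41 outside it. The share of distant peaks in the 10 stretches with most of them was 13.3% at 400 kb, 34% at 750 kb and 54.9% at 1 Mb, against 17% as reported. Searching the whole peak raised the TEAD share to 31.2% of opened and 15% of closed peaks, and the AP-1 share to 18.7% and 33.6%. No paired analysis was possible because the columns used here hold no value per sample, and for the same reason no replicate could be left out. The precision set by depth is unknown.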
